A study of Saccharomyces cerevisiae with 12 samples.

Results

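The mitochondrial protein import machinery was followed as 33 genes, listed by symbol and found on the arrays through their systematic names in the S288C gene table. All 33 had a probe, 1 each, among the 6214 genes measured. They cover the outer membrane translocase (TOM, 8 genes), the outer membrane sorting and assembly machinery (SAM, 4), the presequence translocase of the inner membrane (TIM23, 4), its import motor (PAM, 4), the carrier translocase (TIM22, 4), the small TIM chaperones (4), the disulfide relay MIA40 and ERV1 (2), the matrix processing peptidase MAS1 and MAS2 (2) and the insertase OXA1 (1).

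Nearly all mitochondrial proteins are made in the cytosol and enter through the TOM channel, whose receptors recognise presequences or internal signals. Precursors with a presequence are handed to TIM23, are pulled into the matrix by the PAM motor around mitochondrial Hsp70 and are cleaved by the processing peptidase. Metabolite carriers take another route, escorted by small TIM chaperones to TIM22, while small cysteine-rich proteins are trapped in the intermembrane space by the MIA40 and ERV1 relay and barrel proteins of the outer membrane are inserted by SAM. The essential subunits of these machines are needed by yeast on fermentable carbon too, when respiration is not.

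Total RNA came from 2 Saccharomyces cerevisiae strains, ITD00185 and T73, that fermented synthetic agave must at 28 ºC. The title sets an agave strain against a wine strain, and since T73 is known as a wine yeast, ITD00185 is read here as the agave strain. For each strain there were 3 biological replicates at 48 h and 3 at 96 h, each hybridised to an array with 2 colours. Cy5 carried the strain's RNA and Cy3 a mixed sample labelled with the array's own time point, whose makeup is not given, and no dyes were swapped. The RNA is that of whole cultures, so fewer cells with a transcript and less of it per cell cannot be told apart. Hybridization also depends on how well a strain's sequence matches the probe, which was not tested. Every value for an array below is a log2 ratio, probably of strain over mix, since neither the log base nor the direction of the ratio is stated. Each array gave 5657 to 6116 values, and the number of arrays limits the precision. Because the mix of a time falls out of a difference between strains at that time, the comparisons are ITD00185 minus T73 at 48 h, the same at 96 h, and the change of that difference between the times. A ratio at 48 h and one at 96 h are taken to different mixes and were not set against each other within a strain, and the ratios of different genes are not levels that can be ranked.

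The arrays were not of one spread, with standard deviations over probes of 1.80 to 2.08 for T73 at 48 h against 1.03 to 1.71 for the other 3 groups. Replicate 2 of ITD00185 at 48 h was unlike its group, with a correlation over genes of 0.40 to 0.50 to the other 2 arrays of the group and of 0.81 to 0.84 to the ITD00185 arrays of 96 h. It was the array farthest from the middle one for 16 of 30 import genes with 3 values in that group and for 62.3% of all such genes.

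**Figure D1:**
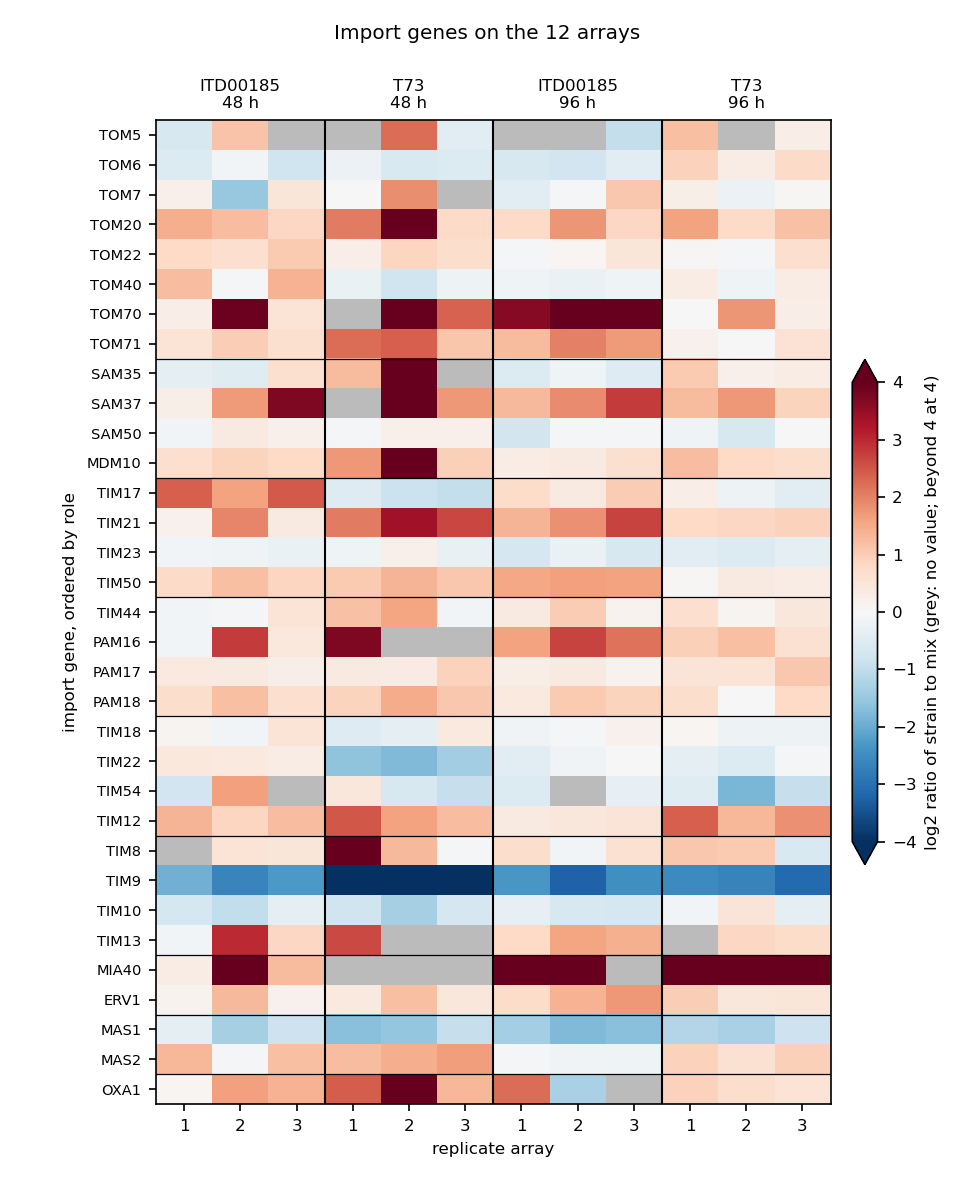
Log2 ratio of strain to mix for the 33 import genes (rows, ordered by role, with lines between roles) on the 12 arrays (columns, 3 per strain and time). Grey cells had no value, and colours stop at 4 in either direction. TIM17 and TIM22 differ in colour between the strains at 48 h, TIM50 and TOM70 at 96 h, and TIM23 and SAM50 have pale cells on all arrays.

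Genes were tested when each group had at least 2 values, which 29 of the 33 import genes met, and a gene is called here at an adjusted p under 0.05 in limma's moderated test over 5474 genes. At 48 h, 4 of the 29 were higher and 3 lower in ITD00185, and at 96 h 3 were higher and 2 lower. TOM71 was called at both times, with opposite signs, and 18 of 29 had no call in any of the 3 comparisons. The called share of the import genes was 24.1% at 48 h and 17.2% at 96 h, against 39.5% and 22.5% of all genes tested. By direction, 12.9% of all genes were higher and 26.7% lower at 48 h, and 12% were higher and 10.5% lower at 96 h. Centring the arrays moved the split over all genes at 48 h from 705 higher and 1459 lower to 1001 and 1120, and left that of the import genes at 4 and 3. The median difference of the import genes was -0.23 at 48 h and -0.02 at 96 h, beside -0.32 and -0.01 over all genes. The counts are thus no result about the machinery as a whole, and what follows are the values of single subunits.

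The question of the first comparison is which import genes differed between the strains at 48 h. Those higher in ITD00185 were TIM17 of the presequence translocase, TIM22 of the carrier translocase, the small chaperone TIM9 and the outer membrane channel TOM40. Those lower were SAM35, TIM21 and TOM71, an assembly factor, a linker subunit and a receptor.

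TIM17, a membrane-embedded core subunit of TIM23, stood at 2.39, 1.61 and 2.44 on the ITD00185 arrays of 48 h. On the T73 arrays of that time it stood at -0.51, -0.86 and -0.95. The strains did not overlap, with a positive ratio on every ITD00185 array and a negative one on every T73 array. The difference was 2.92 ± 0.31 (SE of the fit, as for all differences below), or 7.57-fold, with an adjusted p of 0.000137. Its partner TIM23, from the same protein family and in the same complex, ran from -0.26 to -0.10 in ITD00185 and from -0.31 to 0.22 in T73. Its strains overlapped, and its difference of -0.08 had a 95% interval of -0.58 to 0.41.

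TIM22, the channel subunit of the carrier translocase and the third member of that protein family, stood at 0.43, 0.40 and 0.29 in ITD00185 and at -1.60, -1.78 and -1.38 in T73. The arrays of each strain lay close together and far from those of the other. The difference was 1.96 ± 0.23, or 3.89-fold, with an adjusted p of 0.000242. The other subunits of this translocase were not called. TIM54, which has a domain in the intermembrane space, differed by 0.80 ± 0.71, TIM18, a membrane subunit, by 0.34 ± 0.29, and TIM12, which docks the chaperones onto the complex, by -0.62 ± 0.35.

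TIM9, which forms a hexamer with TIM10 that carries hydrophobic precursors through the intermembrane space, stood at -1.93, -2.64 and -2.29 in ITD00185 and at -4.03, -4.65 and -4.64 in T73. The ratios of both strains were strongly negative on every array, and T73 was the lower of the pair without overlap. The difference was 2.15 ± 0.32 (adjusted p 0.000859), but with the arrays scaled to one spread it was 0.51 and not called. It kept its call under 21 of 22 alternatives, and was 1.45 after quantile normalization. Its partner TIM10 differed by 0.23 ± 0.30, with overlapping arrays, and TIM8 by -1.64 ± 1.22, with T73 values from -0.08 to 5.25.

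TOM40, the barrel that forms the outer membrane channel, stood at 1.25, -0.08 and 1.40 in ITD00185 and at -0.28, -0.79 and -0.20 in T73. The strains did not overlap, but replicate 2 of ITD00185 lay next to the T73 arrays. The difference was 1.28 ± 0.37 (adjusted p 0.019), and 1.74 without that array (adjusted p 0.00046). It lost its call without ITD00185 48 h replicate 1 (1.08), ITD00185 48 h replicate 3 (1.00) or T73 48 h replicate 2 (1.09), and in the fit of the arrays of 48 h alone (1.28, adjusted p 0.105).

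TOM71, a paralog of the carrier receptor TOM70, stood at 0.55, 0.99 and 0.63 in ITD00185 at 48 h and at 2.22, 2.39 and 1.10 in T73. All T73 arrays were above all ITD00185 arrays. The difference was -1.18 ± 0.36 (adjusted p 0.0236). TOM70 itself had 0.28, 3.92 and 0.55 in ITD00185 and only 4.11 and 2.36 in T73, so that its arrays overlapped through ITD00185 replicate 2, and its difference of -1.65 ± 1.01 was not called (adjusted p 0.209). Without that array TOM70 was called, as lower in ITD00185, and MAS1 as higher. The called share of all genes tested rose in that fit too, from 39.5% to 51.7%. TOM71 lost its call without ITD00185 48 h replicate 1 (-1.09) or 3 (-1.13) or T73 48 h replicate 1 (-1.02) or 2 (-0.94).

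TIM21, a TIM23 subunit that contacts TOM and the respiratory chain, stood at 0.18, 1.95 and 0.36 in ITD00185 and at 2.07, 3.37 and 2.66 in T73. The strains did not overlap, though ITD00185 replicate 2 came within a short distance of the lowest T73 array. The difference was -1.87 ± 0.50 (adjusted p 0.0143) and -2.43 without that replicate, and the call was lost without ITD00185 48 h replicate 1 (-1.55) or 3 (-1.64) or T73 48 h replicate 2 (-1.54), and in the fit of that time alone (-1.87, adjusted p 0.0709). SAM35, which recognises the signal of barrel proteins, stood at -0.39, -0.48 and 0.65 in ITD00185 and had only 1.27 and 4.80 in T73. Its difference of -3.11 ± 0.81 (adjusted p 0.0143) rested on those values. Without T73 48 h replicate 2 a single T73 array was left, the spread came from the other groups, and the value was -1.35 and not called.

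The 3 lower calls of 48 h were all lost when the arrays were scaled to one spread, where TOM71 stood at -0.29, TIM21 at -0.88 and SAM35 at -1.92, and after quantile normalization (-0.24, -0.95 and -1.99), and also in the fit of 48 h alone, where the differences stay as given and the spread is estimated from fewer arrays. The called share of all genes tested was 39.5% as deposited. It was 22.9% with scaled arrays, 23.1% after quantile normalization and 14.1% in the fit of 48 h alone. The number lower was 1 without ITD00185 48 h replicate 1 or 3, 0 without T73 48 h replicate 2 and 6 without T73 48 h replicate 3. In these fits the called share of all genes tested was, in turn, 25.8%, 26.2%, 29.1% and 41.2%. By contrast TIM17, at 2.77 to 3.78, and TIM22, at 1.82 to 2.23, kept their calls under all 22 alternatives run. Some of these could hardly move them, since leaving out an array of 96 h changes only the shared spread and no import value lay beyond 10.

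Other members at 48 h were not called. In TOM these were TOM20, a presequence receptor (-1.20 ± 0.69), TOM22, the central receptor (0.23 ± 0.27), and the small subunits TOM6 (-0.03 ± 0.27) and TOM7 (-1.23 ± 0.70). In SAM the barrel SAM50 differed by 0.03, with a 95% interval of -0.57 to 0.63, SAM37 by -1.44 ± 1.05 and MDM10, which also tethers mitochondria to the endoplasmic reticulum, by -1.62 ± 0.69. MDM10 values of 1.74, 4.53 and 0.96 in T73 were all above the 0.66 to 0.90 of ITD00185. The motor subunits tested were not called, with TIM44, the anchor of Hsp70, at -0.75 ± 0.42, PAM18, which stimulates its ATPase, at -0.30 ± 0.30, and PAM17 at -0.21 ± 0.25. The peptidase subunits MAS1 (0.54 ± 0.31) and MAS2 (-0.63 ± 0.34), the oxidase ERV1 (-0.14 ± 0.39), the inner membrane receptor TIM50 (-0.23 ± 0.22) and the insertase OXA1 (-2.17 ± 1.13) had no call either, and OXA1 spread from 1.34 to 5.87 in T73.

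**Figure D2:**
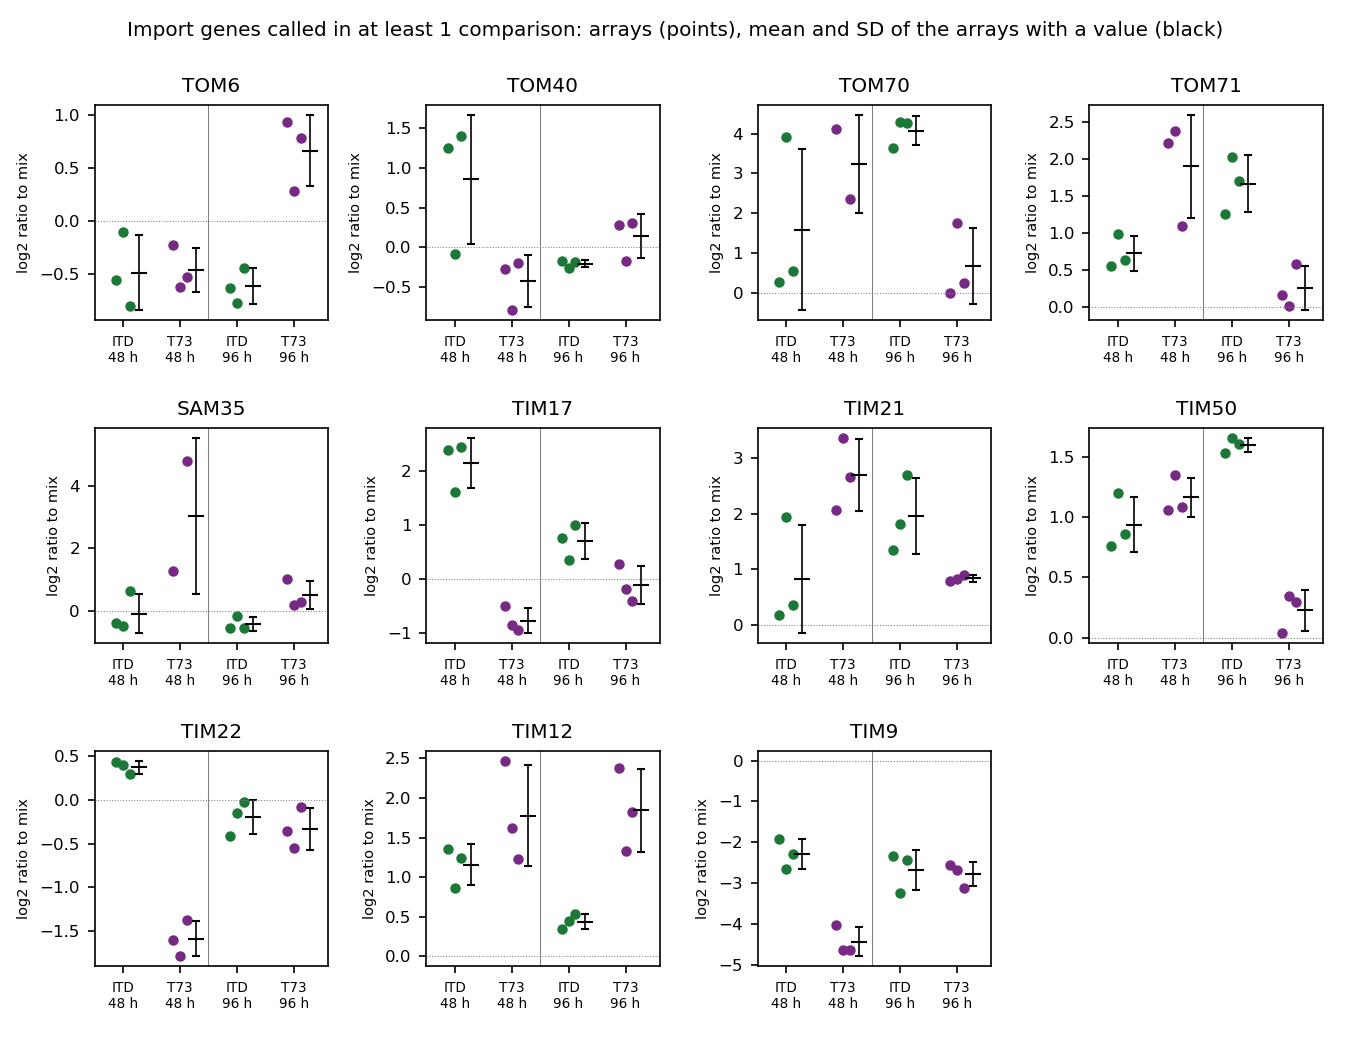
Log2 ratio to mix on each array (points, green for ITD00185 and purple for T73) of the 11 import genes called in at least 1 comparison, with the mean and SD of the arrays with a value in black. Each panel has its own vertical axis. The strains are apart at 48 h for TIM17, TIM22 and TIM9 and at 96 h for TIM50, TOM6 and TIM12, and TOM71 is higher in T73 at 48 h and higher in ITD00185 at 96 h.

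The second comparison asked which import genes differed at 96 h. Those higher in ITD00185 were TOM70, TOM71 and TIM50, and those lower were TOM6 and TIM12. ITD00185 48 h replicate 2, the array unlike its group, enters this comparison only through the shared spread. Without it 5 were higher, with TIM17 and TIM21 added, and 3 lower, with MAS2 added. Calls over all genes tested rose in that fit as well, from 22.5% to 32.9%. TIM22, TIM9 and TOM40, called at 48 h, were not called at 96 h.

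TIM50, the receptor that takes precursors from TOM to TIM23, stood at 1.54, 1.66 and 1.60 in ITD00185 and at 0.04, 0.35 and 0.30 in T73. The ITD00185 arrays lay within a narrow band well above all T73 arrays. The difference was 1.37 ± 0.22, or 2.59-fold, with an adjusted p of 0.00212, and it kept its call under all 22 alternatives, at 1.08 to 1.45.

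TOM70, the receptor for carriers and other precursors without a presequence, which also docks cytosolic chaperones, stood at 3.65, 4.30 and 4.27 in ITD00185. In T73 it stood at 0.01, 1.76 and 0.25. The strains did not overlap, and T73 replicate 2 lay apart from its group. The difference was 3.40 ± 0.90, or 10.6-fold, with an adjusted p of 0.0247. TOM71 had the same direction, at 1.26, 2.03 and 1.71 in ITD00185 against 0.16, 0.00 and 0.58 in T73, a difference of 1.42 ± 0.36 (adjusted p 0.0179) without overlap. TOM70 lost its call without ITD00185 96 h replicate 2 or 3 or T73 96 h replicate 1 or 3, at 3.07 to 3.30. TOM71 lost it without ITD00185 96 h replicate 2 or 3 or T73 96 h replicate 1 or 2, at 1.24 to 1.40.

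TOM6, a small subunit that helps to assemble the TOM complex, stood at -0.63, -0.78 and -0.44 in ITD00185 and at 0.93, 0.28 and 0.78 in T73. The ratio was negative on every ITD00185 array and positive on every T73 array. The difference was -1.28 ± 0.27 (adjusted p 0.00761), and it kept its call under all 22 alternatives. TIM12 stood at 0.35, 0.44 and 0.53 in ITD00185 and at 2.38, 1.33 and 1.83 in T73, again without overlap. Its difference was -1.41 ± 0.35 (adjusted p 0.0175), and it lost its call without ITD00185 96 h replicate 2 (-1.41) or T73 96 h replicate 1 (-1.14) or 3 (-1.41).

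The other members tested were not called at 96 h. The TIM17 arrays did not overlap, at 0.75, 0.35 and 1.00 in ITD00185 against 0.27, -0.19 and -0.41 in T73. The closest were 0.35 and 0.27, and 57.6% of all genes with 6 values did not overlap either. The TIM17 difference of 0.81 ± 0.31 missed the threshold (adjusted p 0.0762). TIM17, TIM21 and MAS2 were all called without ITD00185 48 h replicate 2, in the fit of 96 h alone and with array weights. The called share of all genes tested rose in these fits too, from 22.5% to 32.9%, 42% and 58.1%. TIM21 differed by 1.12 ± 0.50, with T73 at 0.79, 0.82 and 0.91 and all ITD00185 arrays above that. MAS2, the subunit of the peptidase that binds presequences, differed by -0.94 ± 0.34 (adjusted p 0.066), with ITD00185 at -0.16 to -0.04 and T73 at 0.61 to 0.94, and MAS1, the catalytic subunit, by -0.49 ± 0.31. TIM22 (0.13 ± 0.23), TIM9 (0.11 ± 0.32) and TOM40 (-0.34 ± 0.37), all higher in ITD00185 at 48 h, had overlapping arrays at 96 h. TIM23 differed by -0.06, with a 95% interval of -0.56 to 0.43. SAM35 (-0.93 ± 0.73), SAM37 (0.70 ± 0.94), MDM10 (-0.50 ± 0.69), TIM54 (0.64 ± 0.71), OXA1 (-0.26 ± 1.26) and TIM8 (-0.10 ± 1.09) had wide errors.

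Of import genes with all 6 values, the strains did not overlap for 7 of 23 at 48 h (30.4%, against 40.8% of all such genes) and for 13 of 28 at 96 h (46.4%, against 57.6%). Those of 48 h were TIM17, TIM22, TIM9 and TOM40, higher in ITD00185, and TIM21, TOM71 and MDM10, lower. Those of 96 h were TIM17, TIM21, TIM50, TOM70, TOM71 and PAM16, higher, and TOM6, TIM12, SAM35, PAM17, MAS1, MAS2 and MDM10, lower. By the test, the number called higher at 96 h fell from 3 to 1 without ITD00185 96 h replicate 2 or 3 or T73 96 h replicate 1. The number called lower fell from 2 to 1 without ITD00185 96 h replicate 2 or T73 96 h replicate 1 or 3. The called share of all genes tested fell in these fits too, from 22.5% to between 9.81% and 11.7%.

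**Figure D3:**
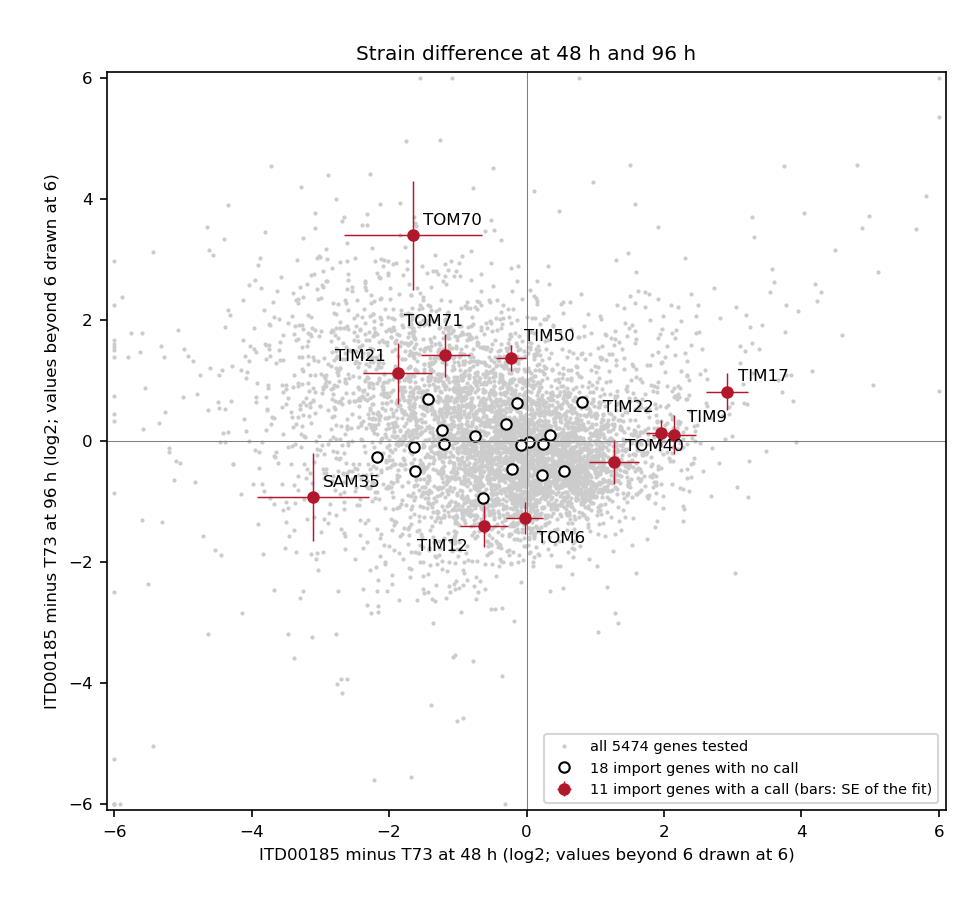
Difference of ITD00185 minus T73 at 48 h (horizontal) and 96 h (vertical) on the log2 scale for all 5474 genes tested (grey), the 18 import genes with no call (open) and the 11 with a call in at least 1 comparison (red, bars for the SE of the fit), with values beyond 6 drawn at 6. TIM17, TIM22, TIM9 and TOM40 lie to the right, TOM70, TOM71 and TIM21 at the upper left, and most import genes lie near the centre among the other genes.

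The third comparison asked whether the strain difference itself changed between 48 h and 96 h. It was called for 9 of 29 import genes (31%, against 38% of all genes tested). The difference moved toward ITD00185 for TOM70 (5.05 ± 1.35, adjusted p 0.0184), TIM21 (2.99 ± 0.71, 0.011), TOM71 (2.60 ± 0.50, 0.00497) and TIM50 (1.60 ± 0.31, 0.00468). It moved toward T73 for TIM17 (-2.11 ± 0.43, adjusted p 0.00604), TIM9 (-2.04 ± 0.45, 0.00826), TIM22 (-1.83 ± 0.32, 0.00323), TOM40 (-1.62 ± 0.52, 0.0318) and TOM6 (-1.25 ± 0.38, 0.0256). Of all genes tested, 24.4% moved toward ITD00185 and 13.6% toward T73. Members without a call included TIM23, at 0.02 with a 95% interval of -0.68 to 0.72, TOM20 (1.15 ± 0.98), TOM22 (-0.29 ± 0.39) and SAM50 (-0.05 ± 0.39).

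The changes of TOM71, TIM17 and TIM22 kept their calls under all 21 alternatives that apply. With scaled arrays the number of import genes moving toward ITD00185 was 1 (TOM71) and that toward T73 was 4 (TOM40, TIM17, TIM22 and TIM12), the same as after quantile normalization, and TIM9 turned to 0.40 with scaled arrays. The called share of all genes tested was 38% as deposited, 22.2% with scaled arrays and 22.8% after quantile normalization. The number toward T73 was 3 without ITD00185 96 h replicate 2, T73 48 h replicate 2, T73 96 h replicate 1 or T73 96 h replicate 3. The called share of all genes tested fell in these fits too, to between 23.1% and 28.4%. Without T73 48 h replicate 2, which left TOM70 a single T73 array at 48 h and its spread to the other groups, TOM70 missed the threshold (4.18, adjusted p 0.0673). TOM6 lost its call without ITD00185 96 h replicate 2, T73 48 h replicate 2, T73 96 h replicate 1 or T73 96 h replicate 3. TOM40 lost its call without any single array but ITD00185 48 h replicate 2, T73 48 h replicate 1, T73 48 h replicate 3 and T73 96 h replicate 2. In the fits where TOM40 lost its call, the called share of all genes tested was 23.1% to 33.3%.

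The members without a test lacked values in at least 1 group. MIA40, the receptor and oxidant of the disulfide relay, had no value on any T73 array of 48 h. It stood at 0.30, 6.72 and 1.28 in ITD00185 at 48 h, at 5.25 and 4.38 in ITD00185 at 96 h and at 6.59, 6.84 and 5.38 in T73 at 96 h. The high ratios at 96 h were shared by both strains, with T73 above, and in a fit of the arrays of 96 h alone MIA40 differed by -1.46 ± 0.51 (adjusted p 0.0658). PAM16, the motor subunit that pairs with PAM18, had 1 value in T73 at 48 h, of 3.74, beside -0.10, 2.81 and 0.41 in ITD00185. At 96 h it stood at 1.61, 2.69 and 2.17 in ITD00185 and at 0.94, 1.20 and 0.60 in T73 without overlap, a difference of 1.25 ± 0.31 (adjusted p 0.0198) in the fit of that time alone. TIM13, which forms a chaperone hexamer with TIM8, also had 1 value in T73 at 48 h (2.64) and differed by 0.47 ± 0.29 at 96 h in that fit (adjusted p 0.242). TOM5, a small subunit that passes precursors to the channel, had 1 value in ITD00185 at 96 h (-0.96) and values of -0.65 to 2.24 elsewhere.

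Partners of the import machinery were read from 7 further lists, of which up to 4 called genes each are named, by smallest adjusted p. Called shares at 48 h and 96 h were 39.5% and 22.5% over all genes tested. They were 88.9% and 55.6% for matrix chaperones and motor partners, 90% and 30% for cytosolic chaperones, and 57.1% and 28.6% for carriers. For relay clients they were 55.6% and 11.1%, and for the outer membrane list 44.4% and 33.3%. For the inner membrane list they were 46.2% and 38.5%, and for other peptidases 25% and 33.3%. Matrix chaperones and motor partners were lower in ITD00185 for 6 of 9 genes tested at 48 h and higher for 2, with a median of -1.82, and at 96 h 4 were higher and 1 lower, with a median of 1.44. The sign of both medians held under centring, scaling and quantile normalization, where that of 48 h was -0.86 with scaled arrays, with 3 lower and 0 higher. MDJ1, the matrix J-protein, differed by -3.90 ± 0.69 at 48 h and 2.90 ± 0.69 at 96 h (adjusted p 0.002 and 0.0138). SSC1, the mitochondrial Hsp70 of the motor, differed by -1.82 ± 0.44 and 1.63 ± 0.44 (0.00939 and 0.0248). ZIM17, which keeps SSC1 soluble, was higher at both times (0.79 ± 0.28 and 1.44 ± 0.28). HSP78, a disaggregase, was lower at 48 h (-3.27 ± 0.72, adjusted p 0.0061), and its change was 5.19 ± 1.02 (0.00519).

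Cytosolic chaperones that deliver precursors were lower in ITD00185 for 8 of 10 genes at 48 h and higher for 1, with a median of -1.76 that kept its sign under the 3 scalings (-1.50 to -1.17), with 3 lower when scaled and 4 after quantile normalization. At 96 h 3 were higher, or 1 after quantile normalization, with a median of 1.06 and XDJ1 alone below 0 (-0.05). SSA4, a stress-induced Hsp70, differed by -4.93 ± 0.64 at 48 h (adjusted p 0.00043), and its change to 96 h was 6.33 ± 0.91 (0.0018). STI1, a cochaperone of Hsp70 and Hsp90, went from -3.69 ± 0.61 to 2.30 ± 0.61 (0.0014 and 0.022). YDJ1, a J-protein on the route to TOM, differed by -2.33 ± 0.50 at 48 h (adjusted p 0.00536) and DJP1 by -4.49 ± 0.95 (0.00583). Their changes of 3.38 ± 0.71 and 5.13 ± 1.28 to 96 h were both called. DJP1 had only 2 T73 values at 48 h. The 1 gene higher at 48 h, named after its values were seen, was SSA3, another Hsp70 (1.92 ± 0.51), which was higher at 96 h too (2.35 ± 0.51).

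Among metabolite carriers, the clients of TIM22, at 48 h 6 of 14 were higher and 2 lower, with a median of 0.74 (0.56 to 1.00 under the 3 scalings), and at 96 h all 4 calls were lower, with a median of -0.89 (-0.94 to -0.73). The change was called for 7 of 14 (50%, beside 38% of all genes tested), all toward T73. With scaled arrays 3 were higher at 48 h and 4 changes were called, and without ITD00185 48 h replicate 2 there were 9 lower at 96 h. AAC1, a minor ADP/ATP carrier, was lower at 96 h (-1.83 ± 0.29, adjusted p 0.00224), and so was GGC1, the GTP/GDP carrier (-2.00 ± 0.35, 0.00379). ODC1, an oxodicarboxylate carrier, was higher at 48 h (1.47 ± 0.37, 0.0112), while DIC1, the dicarboxylate carrier, was lower at both times (-1.01 ± 0.25 and -0.86 ± 0.25).

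Clients of the disulfide relay went both ways at 48 h, with 3 of 9 higher and 2 lower, or 2 and 1 with scaled arrays. Of the 2 lower, 1 is also in the inner membrane list and is counted in both. SOD1, the copper and zinc superoxide dismutase, was higher (1.60 ± 0.24, adjusted p 0.000897) and so was CMC1 (2.71 ± 0.58, 0.00733), a protein of copper trafficking. CMC1 had only 2 T73 values at 48 h. MIX17, which has a twin cysteine motif, was lower (-2.49 ± 0.41, 0.00134). CMC2 was higher at 48 h (1.18 ± 0.37) and lower at 96 h (-2.42 ± 0.37), the 1 call of that time in the list.

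In the outer membrane list of insertion factors, tethers and porins, 2 of 9 were higher and 2 lower at 48 h, and 3 were higher at 96 h. The porin POR1 was higher at 48 h (1.54 ± 0.40, adjusted p 0.0124), and MDM34 of the tether to the endoplasmic reticulum was lower (-1.99 ± 0.37, 0.00249). OM45, an abundant outer membrane protein, went from -2.35 ± 0.61 to 2.65 ± 0.61 (0.0123 and 0.0121). OM14 was higher at both times (1.06 ± 0.25 and 1.04 ± 0.25).

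Among genes of inner membrane export, cristae and cardiolipin, 5 of 13 were lower and 1 higher at 48 h, and 3 were higher and 2 lower at 96 h. The median of 48 h, -0.60, was 0.09 when arrays were scaled and 0.11 when they were quantile normalized, with 1 lower in each. The prohibitin PHB2 went from -2.78 ± 0.57 to 2.09 ± 0.57 and MDM38 from -1.89 ± 0.50 to 1.67 ± 0.50, all called. CRD1, the cardiolipin synthase, went the other way, from 0.87 ± 0.27 to -0.82 ± 0.27. MIC26, a subunit of the cristae organising complex, was higher at 96 h (2.95 ± 0.66, adjusted p 0.0103). Of 12 other peptidases and quality control proteases, 3 were lower at 48 h (25%, beside 26.7% of all genes tested) and 0 higher. At 96 h 2 were higher and 2 lower. PIM1, the matrix Lon protease, was higher at 96 h (1.77 ± 0.40, adjusted p 0.0104) and so was CYM1, which degrades cleaved presequences (1.67 ± 0.36, 0.00951). YTA12, of the matrix AAA protease, was lower at 48 h (-4.39 ± 1.10, 0.0107) and so was MSP1, which extracts misplaced proteins from the outer membrane (-1.82 ± 0.46, 0.0128). In T73 at 48 h, YTA12 had an SD of 3.01 between arrays and MSP1 only 2 values. With scaled arrays 1 gene of this list was lower at 48 h.

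**Figure D4:**
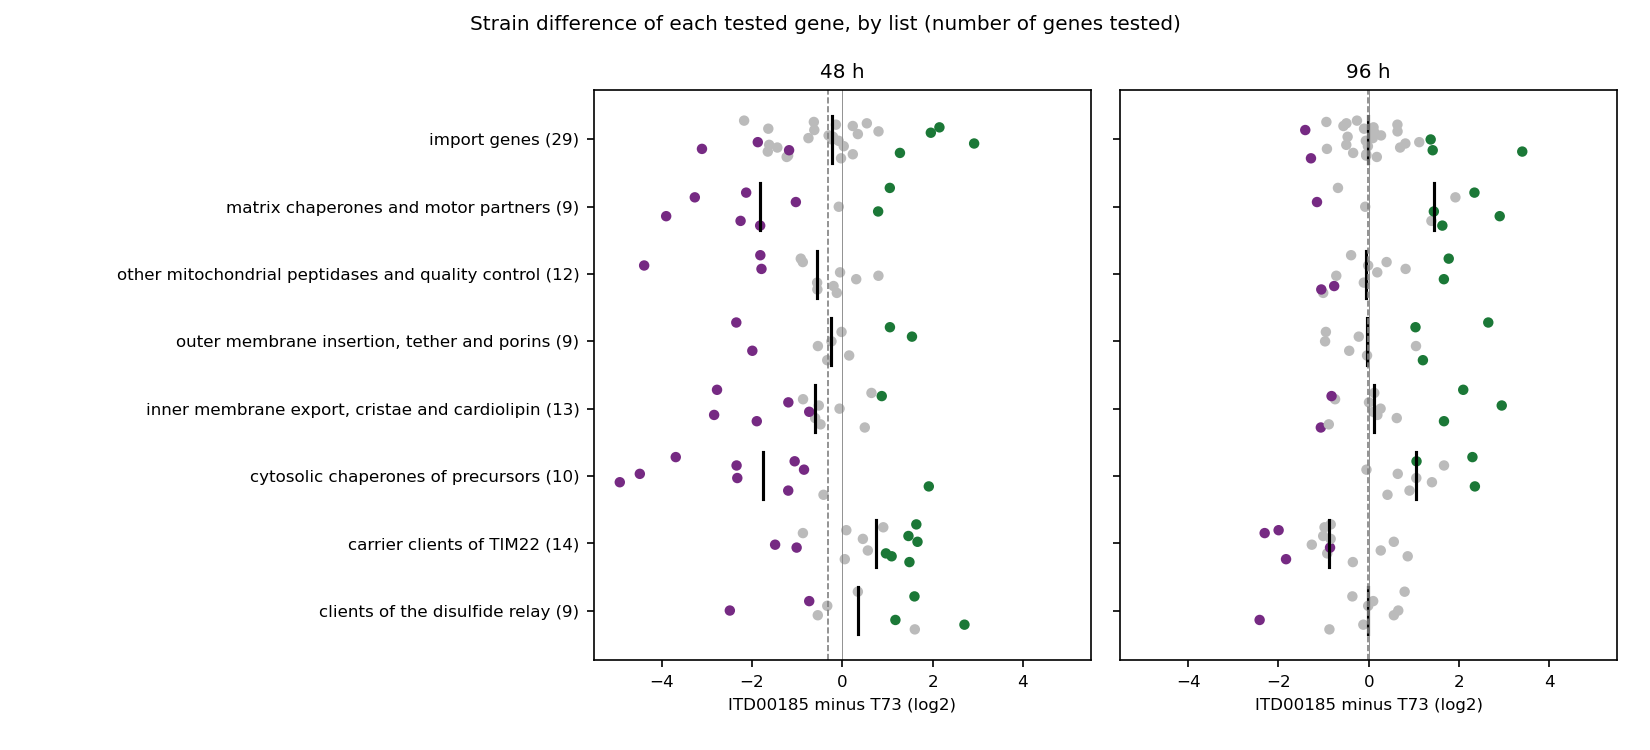
Difference of ITD00185 minus T73 on the log2 scale at 48 h (left) and 96 h (right) for each tested gene of the import set and of 7 lists of partners (green called higher, purple called lower, grey not called), with the list median as a black bar and the median of all genes as a dashed line. The chaperone lists lie to the left at 48 h and to the right at 96 h, the carriers the reverse, and the import genes spread around the median of all genes at both times.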

How the data were processed

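The deposited table holds 1 log ratio per probe and array, made by the authors from arrays with 2 colours, and was read here as log2, since its base is not stated. Per the labels, RNA was amplified linearly and labelled by an indirect cDNA method. For scanning, background and normalization no source used here gives the steps, so scale, centring and direction stay unknown, and array medians ran from -0.03 to 0.43.

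Of 6246 probes, 5753 matched the R64 gene table by systematic name and 34 by synonym. The 459 unmatched probes were kept as genes under their own names and count among all genes. Probes of a gene were averaged, giving 6214 genes. With limma 3.58.1 (R 4.3.3), 1 mean per strain and time was estimated for 5474 genes with at least 2 values in each group, without imputation, so that missing values drop out gene by gene. Tests were two-sided with p-values adjusted by Benjamini and Hochberg over all genes, and the threshold was 0.05. The code was tested on simulated data.

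Values on every array are printed for up to 16 import genes, those called in at least 1 comparison and then their partners, with MIA40 and PAM16 added after their values were seen. Of each further list, up to 4 called genes are named by smallest adjusted p, with SSA3 and XDJ1 added after their values were seen. The members and lists were chosen with earlier results of these data known. Alternatives were centring, scaling to one spread, quantile normalization, fits of 1 time, stricter and looser filters, array weights, a robust prior, removal of values beyond 10, a replicate block and leaving out each array.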

Additional observations from a re-analysis of the deposited data

Results flagged for a closer look

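The change of the strain difference from 48 h to 96 h was called for 9 of 29 import genes. Their called share was 31%, against 38% of all genes tested. Values are on the log2 scale, with positive ones moving toward ITD00185. The changes were 5.05 for TOM70, 2.99 for TIM21, 2.60 for TOM71 and 1.60 for TIM50. They were -2.11 for TIM17, -2.04 for TIM9, -1.83 for TIM22, -1.62 for TOM40 and -1.25 for TOM6. Beside these, the arrays of T73 at 48 h had the widest spread of the 4 groups, and its part in the changes was not tested beyond the scaling of the arrays. The changes of TOM71, TIM17, TIM22 and TOM40 were called with arrays scaled to one spread. Not called there were TOM6, at -1.21 (adjusted p 0.0589) close to its unscaled value, TOM70 at 3.24, TIM21 at 1.57, TIM50 at 0.60, and TIM9, which turned to 0.40.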

How the results depend on the processing

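Of 21 calls of import genes, 7 held under every alternative run: TIM17 and TIM22 at 48 h, TOM6 and TIM50 at 96 h, and the changes of TOM71, TIM17 and TIM22. Leaving out an array of the other time moves a difference at 48 h or 96 h only through the shared spread. The only one to turn its sign was the change of TIM9, at 0.40 with scaled arrays. The number lower at 48 h was 0 with scaled arrays, after quantile normalization and in the fit of that time alone, which called 3 higher. With quantile normalization the median difference at 48 h was 0.22. At 96 h the fit of that time alone called 6 higher and 4 lower, and array weights 6 and 7. For the change, scaled arrays and quantile normalization each left 1 toward ITD00185, array weights gave 8 toward T73, and the median was -0.30 centred, -0.31 after quantile normalization and 0.52 with weights. Over all genes the counts at 48 h were 2164 as deposited, 1252 scaled, 1265 after quantile normalization and 778 in the fit of that time alone, at 96 h 1229 as deposited, 2486 in the fit of that time alone and 3178 with weights, and for the change 2080, 1215 scaled, 1248 after quantile normalization and 3275 with weights. Centring moved the split of calls at 48 h from 705 higher and 1459 lower to 1001 and 1120, and that of the change from 1333 and 747 to 1117 and 1122. The median over all genes moved from -0.32 to -0.05 at 48 h and from 0.20 to -0.12 for the change. With each of the 12 arrays left out in turn, the number higher at 48 h was 3 to 5 and lower 0 to 6, at 96 h 1 to 5 and 1 to 3, and for the change 3 to 6 and 3 to 6. The medians over the import genes were then -0.40 to -0.13, -0.058 to 0.16 and -0.11 to 0.74. Over all genes, the calls were then 1414 to 2832 at 48 h, 537 to 1799 at 96 h and 1264 to 2903 for the change. With the replicate block the counts were 4 and 3 at 48 h, 4 and 2 at 96 h and 4 and 5 for the change, and TIM21 was added at 96 h. Whether the numbers pair the arrays is not known. At 48 h deviations of arrays with the same number correlated at -0.03, 0.24 and 0.31, and those with different numbers at -0.33 to 0.18. At 96 h arrays with the same number correlated at 0.08, -0.04 and -0.13, and those with different numbers at -0.13 to 0.15. The cause of these shifts was not tested.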

Other observations

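TIM17 lies between ROQ1 and IRC9 in the gene table of S288C. All 3 genes were called at 48 h, as were 39.5% of all genes tested. IRC9 was higher in ITD00185 by 6.29 ± 0.28 at 48 h and 6.93 ± 0.28 at 96 h (adjusted p 3.56e-07 and 8.22e-08), with no call for its change (0.64, adjusted p 0.217). ROQ1 was lower at 48 h (-2.39 ± 0.78, adjusted p 0.0315) and higher at 96 h (3.58 ± 0.78, adjusted p 0.00933). TIM17 shared the sign of IRC9 at both times and that of ROQ1 at 96 h alone, and was called at 48 h alone. These genes were picked out after their values were seen.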
